A study of Mus musculus with 2 samples.

Results

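The collagen gene family was examined in the left cerebral cortex of the mouse. Members were all genes whose symbol has the form Col, a number, the letter a and a number (such as Col1a1) and that have a protein-coding transcript, a rule that uses no measured value. The rule found 44 genes of the 55536 genes in the gene tables, of which 22028 are protein-coding. Every gene with such a symbol met the requirement, and no member was at a count of 0 in both mice.

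The 2 mice were males of the F1 hybrid strain B6CASTF1/J, 36 days old, from The Jackson Laboratory. Each gave 1 total RNA library from 300 ng of RNA, made after reduction of ribosomal RNA and with ERCC spike-ins, which are synthetic transcripts added to every sample. The labels number the mice as biological replicates 1 and 2 but give the same donor identifier for both. Whether they are separate animals is therefore uncertain, and they are treated as such here. They form 1 untreated group with no control, and the smallest p an exact permutation test could give is 0.5, so levels are given with their spread and without a test. The level used below is TPM (transcript abundance scaled to a fixed total), which corrects for transcript length and so allows genes to be compared with each other. Comparisons between the mice used expected counts, the estimated numbers of reads per gene. Both come from an alignment-based table, and a separate read-based table of the same libraries served as an alternative. Total expected counts were 29915463 in replicate 1 and 27988085 in replicate 2.

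The labelled tissue was checked against marker genes. All 4 excitatory neuron markers reached 1 TPM in both mice, led by Slc17a7, the vesicular glutamate transporter, at 599 and 563 TPM in replicates 1 and 2. All 6 inhibitory neuron markers, all 4 astrocyte markers, all 3 oligodendrocyte precursor markers and all 10 endothelial markers were also at or above 1 in both. Of the 8 leptomeningeal fibroblast markers 7 reached that level, with median TPM of 6.55 and 7.61, and the exception was Lum at 0.74 and 1.00. Lists for tissues that lie next to the brain were partly present. Of the bone and cartilage markers 2 of 5 reached 1 TPM in both mice, Runx2 at 4.78 and 3.93 and Acan at 1.39 and 1.82, and of the choroid plexus markers also 2 of 5, Ttr at 8.6 and 5.35 and Kl at 1.30 and 1.43. Their other members were below 1. The bone genes Bglap and Ibsp stood at 0.44 and 0.00 TPM and at 0.13 and 0.17 TPM, and the choroid plexus channel gene Kcne2 at 0.03 and 0.07 TPM. Of the skeletal muscle markers 1 of 4 reached 1 TPM in both mice, Acta1 at 4.53 and 4.28, while Ckm had 0.04 and 0.18 TPM. In bulk tissue, fewer cells of a type and less RNA per cell cannot be told apart.

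Collagens are extracellular proteins in which 3 chains wind into a helix, and the winding requires glycine at the start of each triplet of residues. Fibrillar collagens build the cables of connective tissue and, in the brain, are made chiefly in the meninges and around larger vessels. Type IV collagen forms the sheet-like network of basement membranes, which in the cortex wrap the vessels and line the pial surface. A few collagens, among them the membrane-bound type XXV and the fibril-associated type XIX, are known to be made by neurons.

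Of the 44 collagen genes, 26 (59.1%) were expressed, meaning 1 TPM or more in both mice, against 58.6% of all protein-coding genes. Another 16 were below 1 in both mice, and Col6a4 and Col4a4 reached 1 in replicate 2 only. At this threshold and in this table the family's share was thus close to the background. Collagen transcripts added up to 184 TPM in replicate 1 and 226 TPM in replicate 2. The 2 most abundant members, Col4a1 and Col4a2, held 25.9% of the summed mean TPM, and the first 5 held 52.1%. The median collagen gene stood at 1.95 and 2.08 TPM, below the median protein-coding gene at 3.49 and 3.82. The plot of all members by level shows the spread, from 27.7 TPM for Col4a1 to 0.145 TPM for Col6a5.

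**Figure D1:**
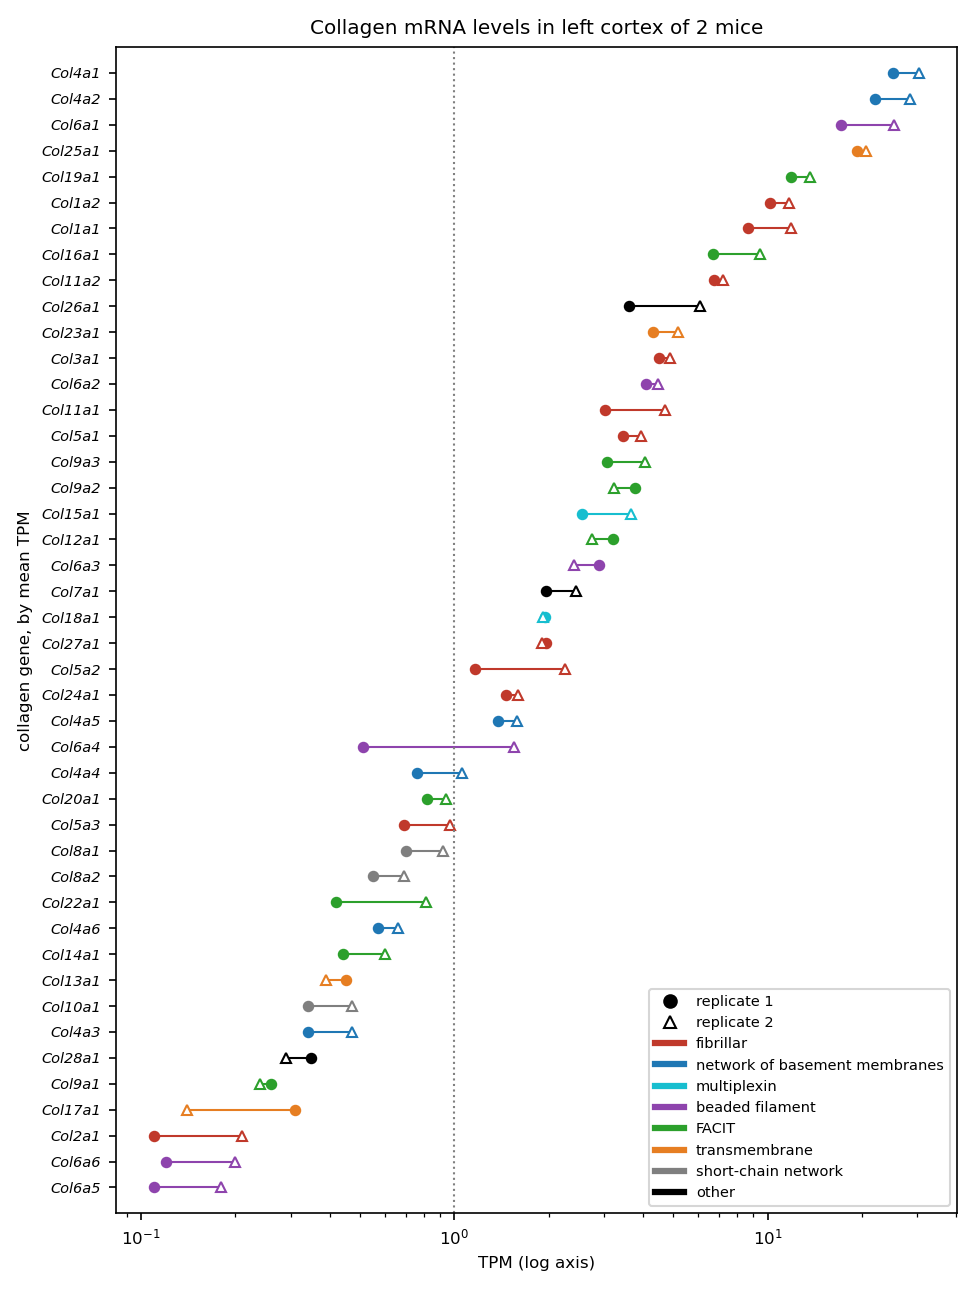
TPM (log axis) of each of the 44 collagen genes, ordered by mean and coloured by structural class, with a filled circle for replicate 1 and an open triangle for replicate 2; the dotted line marks a TPM of 1. Col4a1, Col4a2, Col6a1 and Col25a1 lead in both mice, and 35 of 44 members have the higher TPM in replicate 2, as do 60.6% of protein-coding genes above 0 TPM in at least 1 mouse.

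The basement membrane chains were the most abundant collagens. Col4a1, the major chain of type IV collagen, had 25.2 TPM in replicate 1 and 30.3 TPM in replicate 2 (27.7 ± 3.66, SD, n = 2). Its partner Col4a2 had 22.1 and 28.5 TPM (25.3 ± 4.58, SD, n = 2). Both chains were higher in replicate 2 on the TPM scale, and the 2 genes' ranges overlapped. They lie head to head on chromosome 8 of mm10, Col4a1 from 11198423 to 11312826 on the minus strand and Col4a2 from 11312805 to 11449287 on the plus strand, with exons that overlap by 22 nucleotides. The other type IV chains were far lower. Col4a5, which takes the place of the major chain in the specialised network of the kidney glomerulus, had 1.38 and 1.59 TPM, and Col4a3, Col4a4 and Col4a6 all had means below 1. The Col4a1 TPM was 18.2 times that of Col4a5 in replicate 1 and 19.1 times in replicate 2. The multiplexins, basement membrane collagens whose ends can be cleaved into vessel-acting fragments, were present at low level. Col15a1 had 2.56 and 3.65 TPM, and Col18a1, the source of endostatin, had 1.94 and 1.92 TPM.

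The coding sequences show what separates type IV from fibrillar collagen. The stretches below come from the coding sequence of the GENCODE M21 transcripts on mm10, 5′ to 3′, with introns removed. Capitals mark the glycine codon (GGN) that opens each triplet of codons. In Col4a1-201 (minus strand, chromosome 8, 11244486 to 11245075, exons 8 to 9, codons 151 to 184) the register breaks for 10 codons, and in Col4a2-201 (plus strand, chromosome 8, 11404982 to 11408069, exons 11 to 13, codons 223 to 248) for 2 codons. Glycine codons inside a break stay in lower case.
Col4a1: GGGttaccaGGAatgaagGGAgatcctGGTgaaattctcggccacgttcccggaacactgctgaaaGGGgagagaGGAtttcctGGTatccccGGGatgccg
Col4a2: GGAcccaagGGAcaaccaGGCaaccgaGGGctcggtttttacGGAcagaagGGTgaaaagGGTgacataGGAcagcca
Such breaks recur along both chains. The longest coding sequence of Col4a1 held 22 separate runs of at least 5 glycine-led triplets, the longest of 40 triplets, and that of Col4a2 held 24, the longest of 66.

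Among the fibrillar collagens the 2 chains of type I led. Col1a2 had 10.1 TPM in replicate 1 and 11.7 TPM in replicate 2 (10.9 ± 1.10, SD, n = 2), and Col1a1 had 8.62 and 11.9 TPM (10.3 ± 2.31, SD, n = 2). The ranges of these 2 chains overlapped, and both were higher in replicate 2. Col11a2, a minor fibril chain best known from cartilage, followed at 6.76 and 7.20 TPM. Col3a1, the chain of type III collagen and a ligand of the receptor Adgrg1 at the pial surface, had 4.5 and 4.87 TPM. Both values lay below those of Col11a2. That order turned in the read-based table, where Col3a1 had 9.25 and 14.8 TPM and Col11a2 had 6.93 and 12.3 TPM. Col11a1, another minor chain, had 3.03 and 4.70 TPM, and Col5a1, which nucleates type I fibrils, had 3.46 and 3.94 TPM. Its partner Col5a2 had 1.16 and 2.25 TPM. The fibrillar genes with shorter helices were low, with Col27a1 at 1.96 and 1.90 TPM and Col24a1 at 1.46 and 1.60 TPM. Of the 11 fibrillar genes, 9 were at or above 1 TPM in both mice. The exceptions were Col5a3 and Col2a1, the main cartilage collagen, which had 0.11 and 0.21 TPM.

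The classical fibrillar chains carry 1 long unbroken helix. The start of the longest run is shown for the leading members, with the same marking as above, because every triplet opens with a glycine codon where the type IV chains have gaps. It lies on chromosome 11, 94939451 to 94939921, plus strand, exons 6 to 8 for Col1a1-201, on chromosome 6, 4512406 to 4515498, plus strand, exons 6 to 8 for Col1a2-201, and on chromosome 1, 45323762 to 45325395, plus strand, exons 5 to 6 for Col3a1-201.
Col1a1: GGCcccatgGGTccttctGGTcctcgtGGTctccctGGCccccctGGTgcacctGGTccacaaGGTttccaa
Col1a2: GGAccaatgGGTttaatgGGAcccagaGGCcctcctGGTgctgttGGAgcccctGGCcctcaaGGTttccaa
Col3a1: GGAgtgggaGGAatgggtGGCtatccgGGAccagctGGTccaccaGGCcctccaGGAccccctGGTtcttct
The longest run spanned 338 triplets in Col1a1, Col5a1, Col11a1 and Col11a2, 339 in Col1a2, Col5a2 and Col2a1, 344 in Col3a1 and 337 in Col5a3. In Col24a1 and Col27a1 the helix was divided, with runs of 216 and 93 triplets in Col24a1 and of 217 and 93 in Col27a1.

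Col6a1, the first chain of type VI collagen, which forms beaded filaments beside basement membranes and cells, was the third most abundant member by its mean, although Col25a1 lay above it in replicate 1. It had 17.2 TPM in replicate 1 and 25.3 TPM in replicate 2 (21.2 ± 5.73, SD, n = 2). Col6a2 had 4.10 and 4.48 TPM, and Col6a3 had 2.90 and 2.40 TPM, although the 3 chains are known to assemble together. Col6a1 lay above both partners in both mice, 4.19 and 5.64 times the TPM of Col6a2 and 5.92 and 10.5 times that of Col6a3. Col6a1 and Col6a2 are neighbours on chromosome 10. Col6a4, an alternative chain that can replace Col6a3 in mice, had 0.51 and 1.55 TPM, and the related Col6a5 and Col6a6 had means of 0.145 and 0.16 TPM. The fractional counts of Col6a5 (20.4 and 30.4) and Col6a6 (17.6 and 31.6) are a sign that the 2 share reads, so their values are uncertain.

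Col25a1, a collagen anchored in the membrane of neurons and a precursor of a component of amyloid plaques, came next by its mean. It had 19.3 TPM in replicate 1 and 20.6 TPM in replicate 2 (19.98 ± 0.940, SD, n = 2). Col19a1, a fibril-associated collagen known from interneurons, where its fragments act in the formation of inhibitory synapses, followed at 11.9 and 13.6 TPM (12.7 ± 1.24, SD, n = 2). Col25a1 exceeded both type I chains in both mice. Col19a1 was above both type I chains within each mouse, but its 11.9 TPM in replicate 1 lay at the value of Col1a1 in replicate 2. That order rests on the table and on the transcripts counted. In the read-based table Col19a1 had 17.4 and 19.6 TPM against 18.6 and 22.01 for Col1a2, and over protein-coding transcripts it had 7.40 and 8.20 TPM, below both type I chains in both mice. Col23a1, another membrane-bound collagen, had 4.29 and 5.19 TPM, and Col25a1 was 4.5 and 3.98 times as high. The remaining membrane-bound members, Col13a1 and Col17a1, had means of 0.42 and 0.225 TPM.

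The neuronal collagens have short helices with several breaks. The first short break lies in Col25a1-201 on chromosome 3, 130522460 to 130530123, plus strand, exons 15 to 17, and in Col19a1-202 on chromosome 1, 24410214 to 24453752, minus strand, exons 13 to 15. That of Col23a1-201 lies on chromosome 11, 51561898 to 51564749, plus strand, exons 12 to 14. The stretches show that the interruption covers 2 codons in Col25a1 and 3 codons in each of the other genes.
Col25a1: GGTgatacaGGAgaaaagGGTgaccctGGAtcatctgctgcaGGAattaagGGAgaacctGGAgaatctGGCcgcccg
Col19a1: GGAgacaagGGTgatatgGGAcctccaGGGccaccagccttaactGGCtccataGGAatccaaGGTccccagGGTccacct
Col23a1: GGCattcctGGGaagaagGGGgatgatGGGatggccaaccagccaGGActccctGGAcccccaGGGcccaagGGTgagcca
Col25a1 held 6 runs, the longest of 40 triplets, in 666 codons, Col23a1 held 5 runs, the longest of 43, in 532 codons, and Col19a1 held 11 runs, the longest of 57, in 1136 codons. The neuronal list used below also holds Col11a1 and Col24a1, whose runs are those of fibrillar chains, so the list is not uniform in structure.

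**Figure D2:**
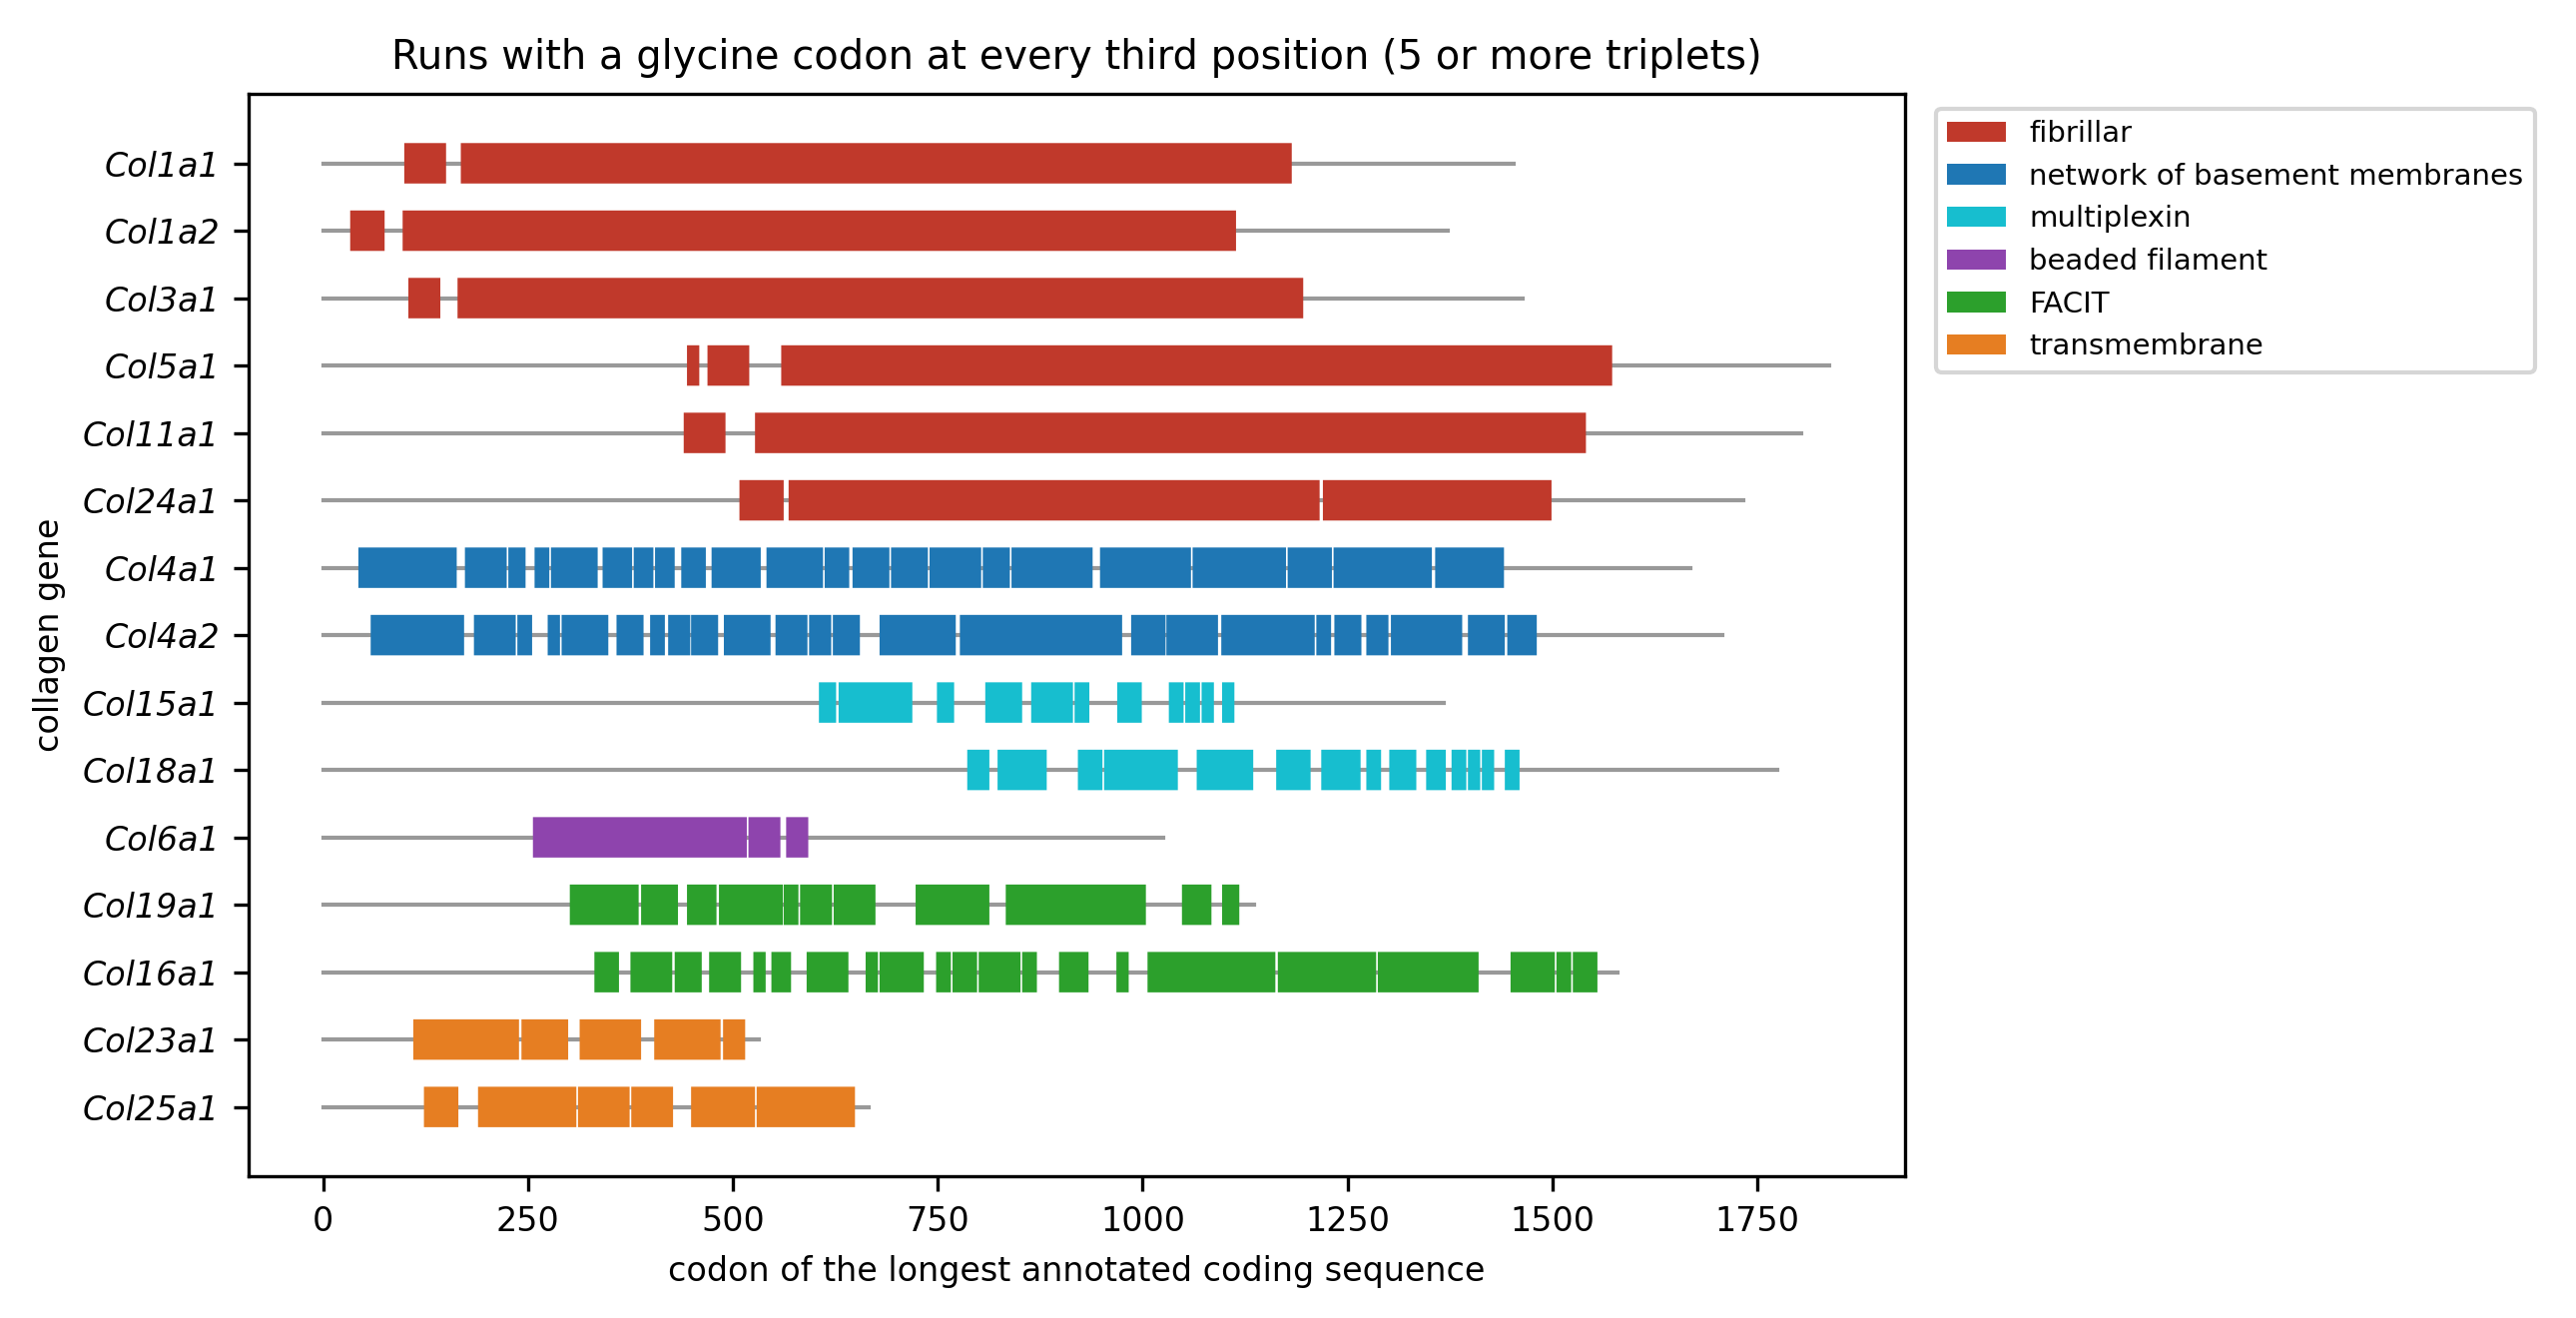
Runs of at least 5 codon triplets that each open with a glycine codon (coloured bars) along the longest annotated coding sequence (grey line) of 15 collagen genes, with the codon number on the x axis and the colour giving the structural class. Col1a1 has a run of 338 triplets, while the longest run of Col4a1 is 40 triplets among 22 runs and that of Col25a1 is 40 among 6.

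The other fibril-associated collagens, which decorate fibrils or lie in basement membrane zones, spanned a wide range. Col16a1 had 6.69 TPM in replicate 1 and 9.46 TPM in replicate 2. Col12a1 had 3.20 and 2.74 TPM, 1 of the few members lower in replicate 2. The chains of type IX, a partner of type II collagen in cartilage, were uneven, with Col9a2 at 3.76 and 3.22 TPM, Col9a3 at 3.06 and 4.05 TPM and Col9a1 at 0.26 and 0.24 TPM. Both chains at 3 TPM or more were thus accompanied by little of Col9a1, and the Col9a3 TPM was 11.8 and 16.9 times that of Col9a1. Col26a1, a short collagen outside the main classes, had 3.60 and 6.06 TPM. Col7a1, which forms the anchoring fibrils of skin, had 1.96 and 2.44 TPM. The short-chain network collagens Col8a1, Col8a2 and Col10a1 all stayed below 1 TPM in both mice.

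The 17 members with a mean below 1 TPM ranged from 0.145 to 0.91 TPM. Just above that threshold were Col6a4 (mean 1.03 TPM), Col4a5 (1.49) and Col24a1 (1.53), and just below it were Col4a4 (0.91), Col20a1 (0.88) and Col5a3 (0.83). Some of the low values carry a limit from neighbouring genes. Exons of Col20a1 overlap those of BX649560.1 on the same strand by 79 nucleotides, and that gene had 488 and 462 counts against 74 and 68 for Col20a1. Exons of Col9a3 and Tcfl5 overlap by 234 nucleotides on opposite strands, and whether the counting used strand is not given in the sources used here. Col3a1 overlaps the small RNA gene Gm47302 on its own strand, which had 4.37 and 7.57 counts. For 5 members, Col26a1, Col15a1, Col28a1, Col17a1 and Col2a1, the deposited TPM of at least 1 mouse lay outside the deposited interval for it, so their levels are less certain than the rest.

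The 3 groups were then set side by side. The fibrillar list, with the meningeal chains Col1a1, Col1a2, Col3a1, Col5a1 and Col5a2, had a median of 4.5 TPM in replicate 1 and 4.87 TPM in replicate 2 (4.69 ± 0.262, SD, n = 2). The basement membrane list, with the vascular chains Col4a1, Col4a2, Col15a1 and Col18a1, had 12.3 and 16.1 TPM (14.2 ± 2.68, SD, n = 2). The neuronal list, with Col25a1, Col19a1, Col23a1, Col11a1 and Col24a1, had 4.29 and 5.19 TPM (4.74 ± 0.636, SD, n = 2). The basement membrane median lay above both others in both mice, while the fibrillar and neuronal medians overlapped. It falls between a pair of genes near 26 TPM and a pair near 2 to 3 TPM, so no member stands at the median itself. The order depends on which genes are listed. Over whole structural classes, the 6 type IV genes had a median of 1.07 and 1.325 TPM. That lay below the median of the 11 fibrillar genes, 3.03 and 3.94 TPM. All 14 listed genes were at or above 1 TPM in both mice, and the median over all protein-coding genes was 3.49 and 3.82 TPM.

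As shares of all collagen TPM, the basement membrane list held 28.1% and 28.5%, the neuronal list 21.7% and 20.2%, and the fibrillar list 15.2% and 15.3% in replicates 1 and 2. This order was the same in both mice. Over protein-coding transcripts the basement membrane list still led, but the neuronal list summed to 27.2 and 30.95 TPM and the fibrillar list to 26.7 and 33.4 TPM, so that their order turned in replicate 2. Read-based sums kept the order of the shares in both mice. They were 80.8 and 112 TPM for the basement membrane list, 58.5 and 67.0 for the neuronal list and 47.4 and 61.9 for the fibrillar list. The read-based medians were 21.4 TPM for the basement membrane list, 12.01 for the fibrillar list and 6.83 for the neuronal list. The fibrillar and neuronal medians, which overlapped in the alignment-based table, thus lay apart. The change in the fibrillar median rests on its middle gene, Col3a1, at 4.69 ± 0.262 TPM in the alignment-based and 12.01 ± 3.90 TPM in the read-based table (SD, n = 2). Over all expressed protein-coding genes the read-based TPM was higher by a median of 0.63 on the log2 scale, and over expressed collagens by 0.60. The list names reflect where these chains are known to be made, and the cells that made them were not measured here.

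**Figure D3:**
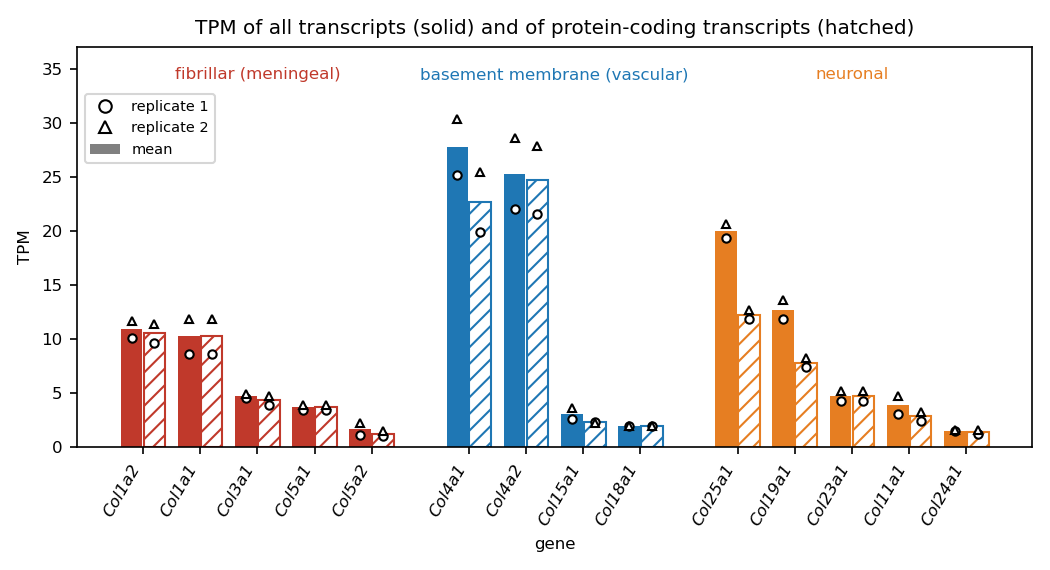
TPM of the genes in the fibrillar, basement membrane and neuronal lists; solid bars are means of the 2 mice over all transcripts of a gene, hatched bars the same over protein-coding transcripts, circles replicate 1 and triangles replicate 2. Col4a1 and Col4a2 stand highest, Col15a1 and Col18a1 stay below 4 TPM in both mice, and the hatched bars of Col25a1 and Col19a1 are the ones that fall furthest below the solid bars in share.

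Pairs of chains were compared as log2 ratios of TPM + 1 within each mouse, a scale that understates ratios of low genes. Of 12 pairs known to assemble into 1 molecule, 3 had a mean ratio past 1 in size, and so did 3 of 7 other pairs from different molecules. In the alignment-based table the type I pair was nearly level, with Col1a1 over Col1a2 at -0.21 in replicate 1 and 0.02 in replicate 2 (mean -0.09 ± 0.16, SD, n = 2). The read-based table gave -0.58 and -0.37 for this pair, with Col1a1 the lower chain in both mice, so its balance rests on the table. The alignment-based type IV pair was also close, with Col4a1 over Col4a2 at 0.18 and 0.08. That sign turned to a mean of -0.12 when only protein-coding transcripts were counted, so no order of the 2 chains is given. Type VI was uneven in both mice, with Col6a1 over Col6a2 at 1.83 and 2.26 and Col6a1 over Col6a3 at 2.22 and 2.95. Col9a2 over Col9a3 changed sign between the mice (0.23 and -0.26), while Col9a3 over Col9a1 was 1.69 and 2.03.

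The minor fibril chains lay between these cases. Col11a2 over Col11a1 was 0.95 and 0.52, and Col5a1 over Col5a2 was 1.05 and 0.60. Among basement membrane genes the ratio of Col15a1 to Col18a1 was 0.28 and 0.67 in the alignment-based table but had a mean of -0.44 in the read-based one, so its direction rests on the table. Between the groups, Col4a1 exceeded Col1a1 by 1.44 and 1.28 and Col25a1 by 0.36 and 0.53. Col25a1 exceeded Col1a1 by 1.08 and 0.75, a difference that fell to a mean of 0.25 ± 0.23 (SD, n = 2) over protein-coding transcripts.

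**Figure D4:**
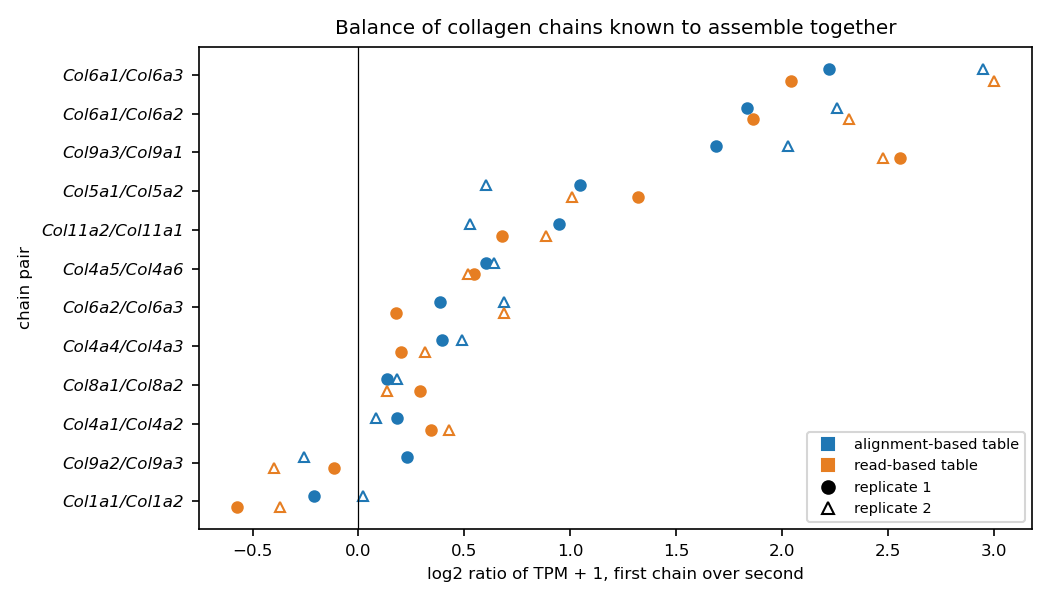
Log2 ratio of TPM + 1 of 2 chains that are known to assemble together, for replicate 1 (circles) and replicate 2 (triangles), from the alignment-based table (blue) and the read-based table (orange). Col6a1/Col6a3, Col6a1/Col6a2 and Col9a3/Col9a1 lie furthest from 0 in both tables, and the pairs Col1a1/Col1a2, Col9a2/Col9a3 and Col4a1/Col4a2 lie closest to 0 in the alignment-based table together with Col8a1/Col8a2.

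Transcript types differed among the collagens. The protein-coding share of a gene's TPM had a median of 73.8% over the 26 expressed members and 88.7% over all expressed protein-coding genes, and 9 members were at 95% or more. Of the 26, 2 were below 50% in both mice, a share close to the 8.57% of all expressed protein-coding genes. Col1a1, Col5a1, Col23a1 and Col18a1 were at or near 100% and Col4a2 and Col6a1 at 97.7% and 98.6%, whereas Col25a1 and Col19a1 were at 61.4% and 61.3%. Col4a1 was between them at 81.7%. In the read-based table its share was 60.4%, beside 59.2% for Col25a1 and 62.1% for Col19a1, so no difference between Col4a1 and the leading neuronal collagens held in both tables. Col25a1 divided into the protein-coding Col25a1-202 (43.4% and 42.1% in replicates 1 and 2) and Col25a1-201 (17.9% and 19.2%) and the nonsense-mediated decay transcript Col25a1-204 (36.7% and 35.3%). Those 3 shares differed between the mice by under 2 percentage points. Col19a1 divided into the protein-coding Col19a1-201 (49.1% and 53.2%) and Col19a1-202 (13.3% and 7.11%) and the processed transcript Col19a1-203 (37.5% and 39.7%).

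Of 27 members compared, 24 had a protein-coding transcript as their most abundant one. The exceptions were Col9a2, led by the processed transcript Col9a2-202 (61.5% ± 6.40, SD, n = 2) ahead of the coding Col9a2-201 (38.5%), Col7a1, led by the retained-intron Col7a1-208 (39.8% ± 5.49), and Col6a4, led by the nonsense-mediated decay transcript Col6a4-204 (56.9% ± 15.2). In Col7a1 the coding Col7a1-201 held 19.6% and the retained-intron Col7a1-207 and Col7a1-203 held 17.2% and 14.2%. In Col6a4 the coding Col6a4-201 held 22.8% and the processed Col6a4-203 held 20.3%. Col7a1-208 and Col6a4-204 are 525 and 1086 nucleotides long, against 9198 and 7371 for the coding transcripts. The read-based table named the same leading transcript for 23 of the 27, the exceptions being Col19a1, Col9a3, Col6a3 and Col7a1.

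In Col4a1 the count and the TPM moved in opposite directions between the mice. Col4a1-201, its full-length coding transcript, had 14.3 and 15.2 TPM, or 56.9% and 50.3% of the gene. The 545-nucleotide Col4a1-203, also annotated as coding, held 22.3% and 33.6%, and the decay transcript Col4a1-208 held 18.1% and 8.69%. Its expected counts were 2462 and 2241, with a log2 ratio of -0.10 after scaling, although its TPM was higher in replicate 2. In Col4a2 a single transcript, Col4a2-201, held 97.7% ± 0.290 (SD, n = 2).

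Short or non-coding transcripts over 10% of the gene were also seen in other members. Col16a1 was the most divided, with Col16a1-210 at 23.2%, Col16a1-209 (nonsense-mediated decay) at 20.3%, Col16a1-207 at 18.9% and Col16a1-206 at 15.04%. Col26a1 was led by the coding Col26a1-202 at 43.6%, with retained introns in Col26a1-206 (14.9%) and Col26a1-203 (12.3%). Col12a1 held Col12a1-201 at 51.9%, the coding Col12a1-204 at 19.5% and the retained-intron Col12a1-203 at 19.4%. The leading transcript therefore held about as much as all others together in Col12a1 and less in Col16a1. The longest coding transcript of Col16a1, Col16a1-201, held only 0.00% and 5.75% in replicates 1 and 2. Col6a3 held Col6a3-202 at 55.5%, the retained-intron Col6a3-206 at 30.2% and Col6a3-203 at 10.2%. Col11a1 held Col11a1-201 at 59.0%, Col11a1-202 at 16.3% and Col11a1-207 (nonsense-mediated decay) at 14.5%, and Col11a2 held Col11a2-201 at 49.8% and Col11a2-207 (retained intron) at 11.2%. Col27a1 held Col27a1-201 at 56.6%, the retained-intron Col27a1-203 and Col27a1-202 at 13.9% and 11.6%, and Col27a1-206 at 10.2%. These leading transcripts are all annotated as protein-coding.

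A few isoform shares moved widely between the mice. Col9a3-201 held 78.9% in replicate 1 and 38.6% in replicate 2, with the retained-intron Col9a3-206 at 7.34% and 18.9%. Col15a1-202 held 69.6% and 44.8%, with the processed Col15a1-209 at 0.00% and 31.8% and the coding Col15a1-203 at 14.2% and 10.6%. Col5a2-201 held 86.6% and 66.5%, with the retained-intron Col5a2-202 at 0.00% and 29.7%. Others moved the opposite way, with Col27a1-201 at 41.1% and 72.2% and Col24a1-201 at 70.9% and 99.6%. These shifts were not all shared by the read-based table. There Col15a1-202 held 77.8% and 94.5% and Col5a2-201 held 85.6% and 93.9%, with Col15a1-209 and Col5a2-202 at 0 in both mice. Col24a1-201 held 100% in both, and Col27a1-201 held 39.2% and 37.8%. In the alignment-based table Col15a1-209 had 0 and 5.25 expected counts and Col5a2-202 had 0 and 3.16, so their shares rest on few reads. Col3a1 was steadier in the alignment-based table, with Col3a1-201 at 81.7% and 71.7% and the short coding Col3a1-205 at 5.31% and 15.8%. Col18a1 had Col18a1-202 at 81.1% and 73.2% there and the longer Col18a1-201 at 7.63% and 18.6%. The read-based table did not share this steadiness for Col3a1, with Col3a1-201 at 54.9% and 32.4%. For Col18a1 it gave Col18a1-202 a lower mean share of 39.2%, beside 37.3% for the coding Col18a1-204.

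Between the mice, collagen counts leaned towards replicate 2. With TMM scaling of expected counts, 41 members averaged at least 20 counts, and 6 of them had a log2 ratio of replicate 2 over replicate 1 above 0.5, against 3.51% of 13807 protein-coding genes. No member was below -0.5, against 2.06% of those genes. The ratio was above 0 for 30 of the 41 members (73.2%) and 45.9% of protein-coding genes, with medians of 0.18 and -0.02. Among genes averaging at least 100 counts, 3 of 26 members were above 0.5 and none below -0.5, against 1.19% and 1.07%. There is 1 library per mouse, so the ratios have no replicate check, and members expressed by the same cells are not independent of each other.

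The 6 members above 0.5 came from several classes. Counts of Col6a4 were 22 and 83 in replicates 1 and 2, giving a log2 ratio of 1.93 with an exact binomial 95% counting interval from 1.26 to 2.70. Col11a1 had 296 and 446 counts (0.63, interval 0.41 to 0.84), Col7a1 had 76 and 125 (0.75, 0.33 to 1.18) and Col5a2 had 135 and 187 (0.50, 0.18 to 0.83). Col6a6 and Col6a5, which share reads, had ratios of 0.86 and 0.60 with intervals that include 0. Ratios of protein-coding genes scattered more at low counts. Of these 6 members, Col6a4 and Col11a1 lay above the central 95% of protein-coding genes of similar count. Col5a2, Col6a5 and Col6a6 lay inside that band, and Col7a1 lay near its upper edge. Among abundant members Col6a1 had 1344 and 1833 counts (0.48, 0.38 to 0.58), Col1a1 had 990 and 1274 (0.40, 0.28 to 0.52) and Col4a2 had 2706 and 3258 (0.30, 0.23 to 0.38). Each of these, though not past 0.5, also lay above the central 95% of protein-coding genes of similar count. Col25a1 was level, with 1798 and 1772 counts (0.01, -0.08 to 0.11). The counting interval lay above 0 for 13 of the 41 members and below 0 for 1 of them, Col4a1 (-0.10, -0.18 to -0.02), against 13.5% and 20.9% of protein-coding genes.

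**Figure D5:**
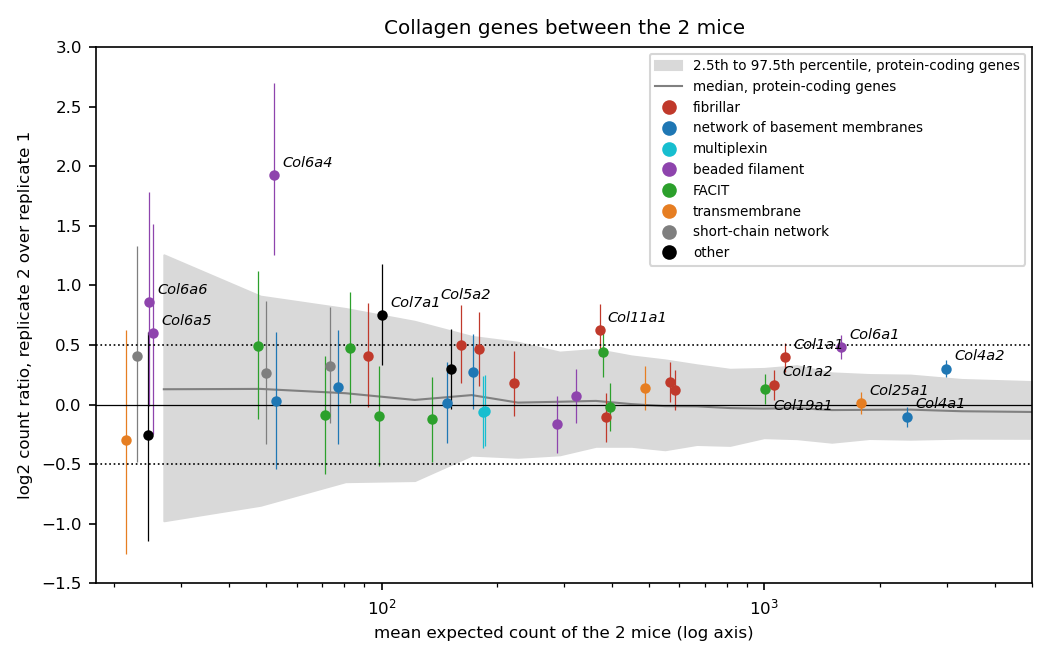
Log2 ratio of TMM-scaled expected counts, replicate 2 over replicate 1, against the mean expected count (log axis) of the 41 collagen genes that average at least 20 counts; bars are 95% counting intervals, the grey band holds the central 95% of protein-coding genes and the dotted lines mark 0.5 and -0.5. Members with a ratio above 0 number 30, Col6a4 is highest at 1.93, and Col4a2, Col6a1 and Col1a1 lie above 0 while Col4a1 lies below.

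Cell markers and base composition were measured beside this lean. The median log2 ratio was 0.22 over leptomeningeal fibroblast markers (6 of 8 above 0) and 0.14 over mural cell markers (6 of 8). It was 0.00 over endothelial markers (5 of 10), -0.05 over astrocyte markers (1 of 4) and -0.18 over excitatory neuron markers (0 of 4). Among markers averaging at least 20 counts, it was 0.23 for bone and cartilage (2 of 2) and 0.09 for oligodendrocyte precursors (2 of 3). On the same basis it was 0.08 for choroid plexus (2 of 3), -0.03 for inhibitory neurons (2 of 6) and -0.14 for skeletal muscle (0 of 1). Summed TPM of the leptomeningeal list was 76.5 in replicate 1 and 90.1 in replicate 2, that of the mural list 79.7 and 80.3, and that of the endothelial list 190 and 180. Igf2, the highest leptomeningeal marker, had 40.4 and 48.2 TPM. The part of these cell types in the collagen ratios was not tested. Collagen transcripts were richer in G and C, with a median of 55.1% against 50.6% over protein-coding genes. The 5404 other protein-coding genes within the members' interquartile range of GC content had a median ratio of 0.00 and 3.66% above 0.5, and the 994 that also matched in length had 0.00 and 2.41%.

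The machinery around collagen was largely present. Of 79 listed partner genes, 78 were found in the tables, and 61 of these (78.2%) were expressed in both mice, against the 58.6% of protein-coding genes given above. At a threshold of 5 TPM, 31 of the 78 remained, a smaller share than the 46.0% of protein-coding genes. All 15 hydroxylases and glycosyltransferases, which modify collagen in the endoplasmic reticulum, were expressed, led by the prolyl isomerase Ppib (76.5 and 75.7 TPM) and P4hb (52.2 and 55.8), the shared subunit of prolyl hydroxylase. All 9 genes found of the chaperone and export list were expressed, with Mia3, needed to load collagen into transport carriers, at 114 and 95.8 TPM. Sparc had 93.1 and 98.8 and Tango2 had 71.4 and 72.6. A place on the list, as for Tango2, does not show a role in collagen export. Serpinh1, the collagen-specific chaperone, named here outside that ranking, had 12.1 and 11.3 TPM. Many of these genes serve other secreted proteins too. Of the 8 genes for removal of propeptides 5 were expressed, led by Bmp1 at 22.5 and 25.9 TPM and Adamts3 at 11.2 and 12.5.

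The crosslinking enzymes were the exception. None of the 5 lysyl oxidase genes, which tie fibrils together, reached 1 TPM in both mice, and Lox itself had 0.46 and 0.43 TPM. The highest, Loxl3, had 0.80 and 2.17 TPM and Loxl1 had 0.71 and 1.17 TPM. Of 11 receptors 9 were expressed, led by Adgrg1 (32.5 and 32.4 TPM), the integrin chain Itgb1 (22.4 and 22.6) and the collagen-binding kinase Ddr1 (21.4 and 23.2), while the platelet receptor Gp6 had 0 and 2 counts. Of 13 other basement membrane genes 12 were expressed, led by Agrn at 59.5 and 66.1 TPM and Lamb2 at 12.4 and 19.0 TPM. Of 7 fibril-associated proteoglycans 5 were expressed, led by Bgn (9.21 and 8.59 TPM) and Fmod (7.82 and 9.79 TPM), and the corneal gene Kera had a count of 0 in both. Among 10 collagenases and inhibitors 6 were expressed, with the inhibitor Timp2 at 106 and 109 TPM and Timp3 at 28.7 and 31.1, and the neutrophil collagenase Mmp8 at a count of 0 in both mice. A count of 0 allows up to 3 counts per library, for counting error only.

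Promoters were searched for 3 short motifs on both strands, in the 250 bases before each start, using RefSeq promoters of GRCm38.p6. Promoters were found for 35 of the 44 members, 38 in all. CCAAT occurred in 34.2% of collagen promoters and 33.8% of all 32851 promoters, and TATAAA in 13.2% and 12.4%. GGGCGG occurred in 57.9% of collagen promoters and 32.7% of all. No motif contains another, and a match describes the sequence only.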

How the data were processed

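Total RNA libraries of 2 mice, 1 each, were analysed. Per the file headers and the deposited listing, the authors quantified genes and transcripts from a transcriptome alignment and transcripts also directly from the reads, on mm10 with GENCODE M21; for aligner and quantification tool, none is named: they are not given in the sources used. The deposited expected counts and estimated counts are not normalized. The deposited TPM is scaled over all rows, including tRNA and spike-ins, and the deposited percent values are shares of a gene's TPM. The deposited interval bounds on TPM (signal values, their confidence not stated in the headers) served only to check TPM. F1 hybrid reads were quantified on the reference strain alone, which can lower counts where the CAST allele differs.

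Precision follows from the totals of 29915463 and 27988085 counts, and 95% exact binomial intervals cover counting error only. Expressed means 1 TPM or more in each mouse. Ratios between genes used log2(TPM + 1). Ratios between mice used expected counts scaled by TMM in edgeR 4.0.16 (R 4.3.3) with a prior count of 0.5, called past 0.5 at a mean count of at least 20, with no model fit and no p-value. Python 3.11.15 with pandas 2.3.3 and scipy 1.17.1 did the rest, and the ratio step was tested on simulated data.

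All members with a mean TPM of at least 1 are named, with isoforms where 2 transcripts pass 10%, the members nearest the threshold, every member called between the mice, and the highest and absent genes of partner and marker lists. The members and lists were chosen with earlier results of these data known. Alternatives were TPM thresholds of 0.1 and 5, 0.1 as pseudocount, TPM over nuclear protein-coding genes alone, the read-based table, DESeq2 1.42.0 size factors, library and spike-in totals, other count minimums and a ratio threshold of 1, and each mouse left out. Protein-coding transcripts only, and leaving out Col6a5 and Col6a6, were added after seeing the data.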

Additional observations from a re-analysis of the deposited data

How the results depend on the processing

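The list medians moved with the scale of the values. Rescaled to nuclear protein-coding genes, which hold 45.0% and 45.5% of all TPM, they were 10.4 TPM (fibrillar), 31.4 (basement membrane) and 10.5 (neuronal), and with the read-based values they were 12.01, 21.4 and 6.83; over protein-coding transcripts the fibrillar median was 4.33. With 1 mouse left out they ranged from 4.5 to 4.87, 12.3 to 16.1 and 4.29 to 5.19. For these lists the basement membrane median was the highest under each of these settings. Expressed members numbered 44 at a TPM of 0.1 and 9 at 5 (69.2% and 46.0% of protein-coding genes), and 26 to 28 with 1 mouse left out. They numbered 32 in the read-based table, against 62.3% of protein-coding genes. After rescaling to nuclear protein-coding genes they numbered 33, a setting for which the background was not computed. The match of the family to the background thus depends on the threshold and the table. Partner genes at a TPM of 5 numbered 31 of 78, a smaller share than the 46.0% of protein-coding genes. Their higher share at 1 TPM thus depends on the threshold. Of all 19 chain ratios 6 were past 1 in size, and 7 to 8 with 1 mouse left out. The ratio Col4a1/Col4a2 turned to -0.12 over protein-coding transcripts and Col15a1/Col18a1 to -0.44 in the read-based table; the cause was not tested.

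Members above 0.5 between the mice numbered 11 with library totals, 26 with spike-in totals, 3 at a mean count of at least 100 and 1 at a threshold of 1, and none was below. Of protein-coding genes, 4.85% were above with library totals, 1.19% at that count and 0.449% at a threshold of 1. Spike-in totals moved the median protein-coding gene from -0.02 to 0.38 and put 26.4% of these genes above 0.5. With DESeq2 size factors 5 members were above 0.5, against 3.45% of protein-coding genes, and Col5a2 was not among them. No paired analysis was possible because the mice form 1 group. Depth limits the members with few counts, such as Col6a5 and Col2a1, and 1 library per mouse leaves the spread between animals and between libraries inseparable.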
